A study of Mus musculus with 12 samples.

Results

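The genes described here are 32 transcripts of neutrophil granules and neutrophil maturation, measured by RNA-seq in cultured mouse bone-marrow-derived dendritic cells. The members were taken from a list of gene symbols, and each symbol matched 1 of the 37991 genes in the count table. All 32 passed the filter on low counts that left 18981 genes for testing. They fall into 6 classes by the stage and compartment in which neutrophils make them. The primary (azurophil) granule class holds 5 early genes, the class of nuclear regulators 3, the secondary granule class 10, the gelatinase and collagenase class 2, the class of cytosolic and secreted late products 7, and the class of late surface proteins 5. Ms4a3, which encodes a membrane protein, is counted among the primary granule genes for its early stage alone.

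The cells were grown from the marrow of C57BL/6 mice that were wild-type (WT) or are labelled Vav1/2/3-/-, called KO-labelled here. Vav proteins are guanine nucleotide exchange factors used by many immune receptors. Curdlan, a particulate beta-glucan recognised by Dectin-1, was given for 3 hours to cultures of both genotypes, and other cultures were not stimulated, so that there were 4 groups of 3 libraries. The comparisons ask how the 32 transcripts differed between genotypes in each state, and how curdlan moved them in each genotype. The labels describe no sort of the cultures and do not say which growth factors were used, whether the libraries of a group came from separate animals or cultures, or which exons the Vav alleles lack.

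Neutrophils mature in the marrow in steps, and each step packs its own granules. Promyelocytes make the serine proteases and peroxidase of primary granules, myelocytes make the iron-binding and antimicrobial proteins of secondary granules, and later cells make gelatinase, cytosolic S100 proteins and surface receptors. Marrow cultures for dendritic cells start from progenitors that can also form granulocytes, and granulocytes are known to be present in such cultures. C/EBP-family factors are known to drive secondary granule genes, PU.1 to drive many myeloid genes including those of primary granules, and GFI1 to repress.

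Upstream sequences are printed for 5 members whose windows hold the letters of a C/EBP-type or a PU.1-type motif and span 3 of the classes. Of the 32 members, 29 had entries in the RefSeq promoter table (GRCm38.p6), and Cebpe, Hp and Mmp9 had none. Each sequence reads 5′ to 3′ on the strand of its gene, lies before the start site and outside the GENCODE span of the gene, and has the motif letters in capitals.
Elane, chr10:79886062-79886246, plus strand: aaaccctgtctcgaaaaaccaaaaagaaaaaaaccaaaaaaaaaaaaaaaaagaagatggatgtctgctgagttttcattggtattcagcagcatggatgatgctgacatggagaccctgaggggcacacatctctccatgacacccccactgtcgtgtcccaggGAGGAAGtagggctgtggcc
Ctsg, chr14:56102575-56102824, minus strand: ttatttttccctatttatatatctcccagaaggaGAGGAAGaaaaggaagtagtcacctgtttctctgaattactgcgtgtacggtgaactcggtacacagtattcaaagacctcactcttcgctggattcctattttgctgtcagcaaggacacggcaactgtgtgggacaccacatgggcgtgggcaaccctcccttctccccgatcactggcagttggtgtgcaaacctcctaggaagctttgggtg
Ltf, chr9:111019042-111019270, plus strand: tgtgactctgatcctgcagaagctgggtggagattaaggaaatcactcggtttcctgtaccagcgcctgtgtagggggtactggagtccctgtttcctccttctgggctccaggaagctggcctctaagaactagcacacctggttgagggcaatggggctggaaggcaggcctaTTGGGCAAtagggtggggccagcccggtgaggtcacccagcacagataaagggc
Ngp, chr9:110419558-110419746, plus strand: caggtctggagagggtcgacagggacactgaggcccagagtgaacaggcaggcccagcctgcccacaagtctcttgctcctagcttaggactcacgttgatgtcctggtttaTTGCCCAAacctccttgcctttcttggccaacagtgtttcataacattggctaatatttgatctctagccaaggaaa
Mmp8, chr9:7558179-7558428, plus strand: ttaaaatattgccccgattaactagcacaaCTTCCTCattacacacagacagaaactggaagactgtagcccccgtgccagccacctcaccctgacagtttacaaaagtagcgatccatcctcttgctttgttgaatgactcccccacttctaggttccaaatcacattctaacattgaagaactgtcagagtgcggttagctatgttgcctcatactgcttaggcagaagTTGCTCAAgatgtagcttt

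The capitals in Elane and Ctsg are the PU.1-type letters GAGGAAG, 85 and 216 bases before the start. Those in Ltf and Ngp are C/EBP-type letters, TTGCNNAA or its reverse complement, 75 and 138 bases before the start. Mmp8 holds both, the C/EBP-type letters 19 and the PU.1-type letters (as CTTCCTC, the other strand) 220 bases before the start. Over the 250 bases before each start and both strands, GAGGAAG occurred in 12 of the 29 genes, against 10.6% of 32851 RefSeq promoters, and TTGCNNAA in 10 of 29, against 9.6%. Among primary granule genes GAGGAAG occurred in 4 of 5 (Mpo, Elane, Prtn3 and Ctsg) and TTGCNNAA in 0 of 5. Of the 9 secondary granule genes with an entry, 4 held TTGCNNAA (Ltf, Ngp, Lcn2 and Fcnb) and 4 held GAGGAAG (Lcn2, Olfm4, Pglyrp1 and Itgb2l). The GFI1-type letters AAATCAC occurred in 3 of 29 (Ltf, Mmp8 and Fpr1), against 2.8%. In the 5 printed sequences no motif matches overlap, and a match describes the window only.

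Libraries are named by genotype and by the number in the library name. Values are listed in the order WT 1, 2 and 4 in both states, KO-labelled 1, 2 and 5 without curdlan, and KO-labelled 2, 4 and 5 with curdlan. The 12 totals ranged from 41421718 to 61217861 counts per library. No targeted transcript was lower past the threshold in KO-labelled libraries. Vav2 lay at 65 to 72.7 CPM (library-size-scaled counts, with TMM factors) in the 6 WT libraries and at 265 to 325 CPM in the 6 KO-labelled ones, and Vav1 and Vav3 were detected in every library. Vav1 was also higher in KO-labelled libraries, at a log2 fold change of 0.67 without and 0.63 with curdlan (edgeR adjusted p = 0.00021 and 0.000289). Vav3 was higher without curdlan (0.48, edgeR adjusted p = 0.0225) and did not pass with it (-0.19, edgeR adjusted p = 0.315). Gene-level counts do not show single exons, and the exons that the alleles lack are not in the labels, so every direction between genotypes rests on the labels. Lane and group cannot be told apart, since every group was run in a lane of its own. Libraries of a group may be technical repeats, and p-values then cover only that spread. Of the dendritic cell markers, the integrin gene Itgax and the class II gene H2-Ab1 reached at least 699 and 698 CPM in every library, and Flt3 lay between 1.49 and 2.46 CPM.

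Library 5 stood apart among the KO-labelled ones. Unstimulated KO-labelled 5 was the highest of its 3 libraries for 30 of the 32 members, with a median level 1.64 times the mean of the other 2, and with curdlan KO-labelled 5 was the highest for 31 of 32, at 1.63 times. Over all tested genes the same median was 0 on the log2 scale in both. The exceptions were Olfm4 in both states and Mmp8 without curdlan. In WT, library 4 was the highest for 27 members without curdlan and for 28 with it, at 1.21 and 1.19 times the other 2. Differences between genotypes are therefore given for each member with all libraries and with both KO-labelled libraries numbered 5 left out. This leave-out was chosen after the members' values were seen, and WT library 4 was kept. It can change both the KO-labelled means and the spread, so a call gained by it is no separate support. Where a pair of values is given, the first is without curdlan and the second with it. In bulk RNA, fewer cells of a type and less RNA per cell cannot be told apart.

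**Figure D1:**
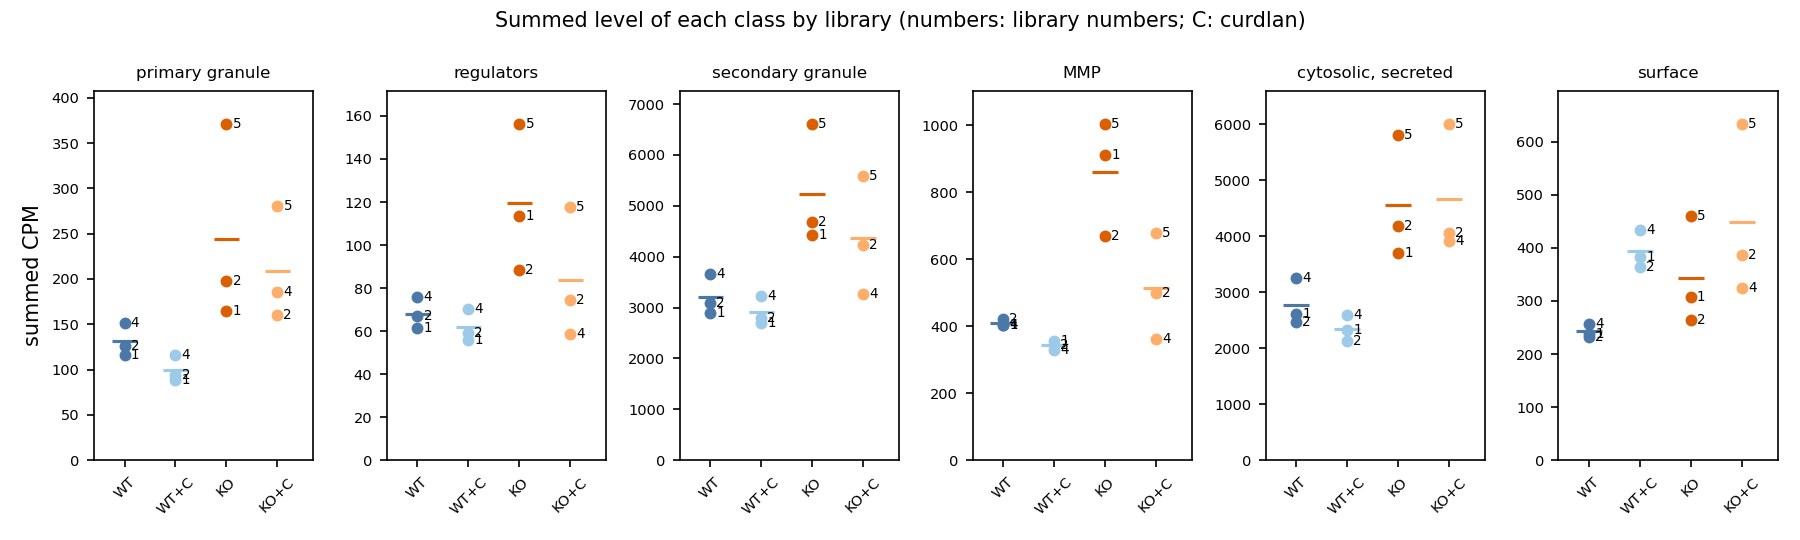
Summed level of each class of members in each library, in CPM on linear axes that start at 0; points are libraries with their numbers, horizontal bars are group means (n = 3), and C marks curdlan. KO-labelled library 5 is the highest of its group in all 6 classes in both states, and in every class without curdlan each KO-labelled library lies above all 3 WT libraries.

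Most of the neutrophil transcripts were higher in KO-labelled than in WT cultures without curdlan. Of the 32 members, 26 were higher (21.1% of all tested genes were), 1 was lower (23.3% of all tested genes were) and 5 did not pass at an adjusted p under 0.05. The median log2 fold change was 0.84, against -0.01 over all genes tested. All 7 cytosolic and secreted late products were higher, and 9 of 10 secondary granule genes, 2 of 2 metalloproteinases, 4 of 5 surface genes, 2 of 3 regulators and 2 of 5 primary granule genes. The lower member was Hp. For 27 members the 3 KO-labelled libraries did not overlap the 3 WT ones, against 56.1% of all tested genes. Without both libraries numbered 5, 25 members were higher (21.7% of 19189 genes tested then) and 2 lower (20.5%), and the median fell to 0.64; 26 of the 27 calls stood, Fcnb lost its call and Fpr2 was now lower.

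With curdlan, 22 members were higher in KO-labelled cultures (24.7% of all tested genes were), 1 was lower (26.8% of all tested genes were) and 9 did not pass. The median was 0.80, against 0.01 over all genes tested, and the groups did not overlap for 20 members, against 56.9% of all tested genes. By class, 7 of 7 cytosolic and secreted products were higher, 6 of 10 secondary granule genes, 3 of 5 primary granule genes, 3 of 5 surface genes, 2 of 2 metalloproteinases and 1 of 3 regulators. Without both libraries numbered 5 the counts were 19 higher (22.8%) and 3 lower (25.9%), with a median of 0.46. Of the 23 calls 19 stood, those of Gfi1, Cd177, Mmp8 and Mmp9 were lost, and Prtn3 (higher), Fpr1 and Fpr2 (both lower) were gained. The 2 genotype comparisons share no library, but they share 1 estimate of the spread. Libraries of the same library-name number also deviated alike from their group means in the 2 states. Over the members these correlations were 0.83, 0.88 and 0.51 for WT 1, 2 and 4, and 0.47 and 0.72 for KO-labelled 2 and 5. The 2 results may therefore not be independent.

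**Figure D2:**
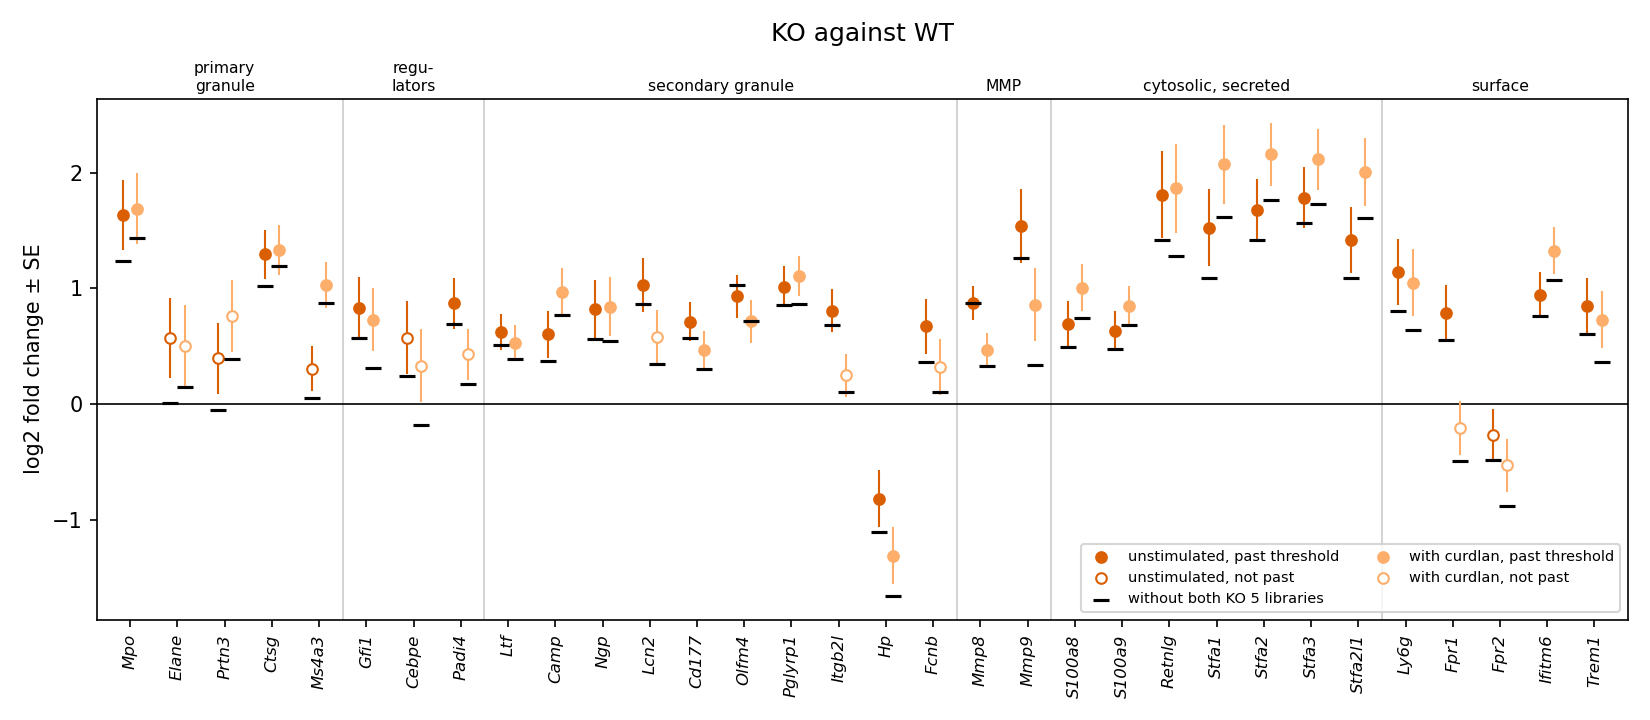
Log2 fold change of each member between KO-labelled and WT libraries, without curdlan (dark) and with it (light), with SE bars (3 libraries a group); filled points passed an adjusted p under 0.05 and black dashes are the values without both KO-labelled libraries numbered 5. With curdlan the stefins, Retnlg and Mpo stand highest, without it Mmp9 (1.54) lies just above Stfa1 (1.52) and Stfa2l1 (1.42), Hp is below 0 in both states, and most dashes lie under their points.

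The primary granule genes did not move alike. Mpo, which encodes the peroxidase of these granules (chromosome 11, 87793581 to 87804413, plus strand, in GENCODE M21 on GRCm38), was 3.1-fold higher in KO-labelled cultures without curdlan. Its level was 25.1, 33.3 and 41.3 CPM in WT and 65.7, 87.1 and 156 CPM in KO-labelled libraries. With curdlan it was 17.9, 21.9 and 27.2 CPM in WT and 59.6, 61 and 95.3 CPM in KO-labelled libraries. Every KO-labelled library lay above every WT one in both states. The log2 fold change between genotypes was 1.63 (SE 0.30, edgeR adjusted p = 0.000869) without curdlan and 1.69 (SE 0.31, edgeR adjusted p = 0.000649) with it. Without the libraries numbered 5 it was 1.23 and 1.43, and both passed. An antisense gene, Gm11505, overlaps Mpo, and the kit named in the labels does not mark strand, so their reads cannot be told apart.

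Elane encodes neutrophil elastase and lies beside Prtn3, the gene of proteinase 3, on chromosome 10. Elane measured 21.8, 22.9 and 31.7 CPM across the unstimulated WT libraries and 23.9, 26.3 and 62.8 CPM in KO-labelled ones. Prtn3 measured 38.4, 38.5 and 42.2 CPM in WT and 37.4, 37.2 and 81.8 CPM in KO-labelled libraries without curdlan. In both genes KO-labelled library 5 stood well above every other unstimulated library, while the other 2 KO-labelled libraries lay within or next to the WT range. Neither passed without curdlan, at a log2 fold change of 0.57 (SE 0.35, edgeR adjusted p = 0.206) for Elane and 0.40 (SE 0.31, edgeR adjusted p = 0.329) for Prtn3. Without the libraries numbered 5 the unstimulated values were 0.01 for Elane and -0.06 for Prtn3. With curdlan Elane stood at 0.50, the lowest value of the primary granule genes, and did not pass. Without the libraries numbered 5 Elane stood at 0.14 with curdlan (edgeR adjusted p = 0.527). With curdlan, Prtn3 stood at 29.4, 30.3 and 35.8 CPM in WT and 33.8, 49.6 and 78.4 CPM in KO-labelled libraries. That difference of 0.76 (SE 0.31, edgeR adjusted p = 0.0579) missed the threshold with all libraries and passed without the libraries numbered 5 (0.39, edgeR adjusted p = 0.0415). Plppr3 overlaps Prtn3 on the other strand.

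Ms4a3, a membrane protein gene of granulocyte and monocyte progenitors, differed between genotypes with curdlan. It measured 23.4, 22.8 and 26.9 CPM across the unstimulated WT libraries and 22.1, 27.3 and 40.6 CPM in KO-labelled ones. In the curdlan libraries the values were 15.4, 15.3 and 17.7 CPM in WT and 26.4, 32.7 and 39.6 CPM in KO-labelled libraries. The groups overlapped without curdlan and lay apart with it. The log2 fold change was 0.30 (SE 0.19, edgeR adjusted p = 0.229) without curdlan and 1.03 (SE 0.20, edgeR adjusted p = 0.000968) with it, and 0.05 and 0.87 once the libraries numbered 5 were left out. Ctsg, the gene of the granule protease cathepsin G, was among the least abundant members and is named after its values were seen. It stood at 1.29 without and 1.33 with curdlan (edgeR adjusted p = 0.000324 and 0.000266), and at 1.02 and 1.19 without the libraries numbered 5.

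Per length, the primary granule genes kept no fixed ratio. The ratio of Mpo to Elane, each in CPM per kb of exon, was 0.331, 0.417 and 0.374 in unstimulated WT and 0.789, 0.952 and 0.714 in unstimulated KO-labelled libraries. With curdlan it was 0.268, 0.324 and 0.296 in WT and 0.735, 0.714 and 0.616 in KO-labelled libraries. KO-labelled library 5 had the lowest of the 3 KO-labelled ratios in both states, and each of the 6 KO-labelled ratios lay above all 6 WT ratios. This ratio was chosen after the values were seen and has no test.

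Among the nuclear regulators, Padi4 was higher in KO-labelled cultures without curdlan. Padi4 encodes the enzyme that citrullinates histones when neutrophils release chromatin. It measured 41.7, 47.3 and 54 CPM across the unstimulated WT libraries and 85.4, 65.3 and 111 CPM in KO-labelled ones. With curdlan it was 36.8, 40.1 and 47.1 CPM in WT and 54.8, 38.6 and 73.8 CPM in KO-labelled libraries. The groups lay apart in the first state and overlapped in the second. Between genotypes this was a log2 fold change of 0.87 (SE 0.22, edgeR adjusted p = 0.00657) without curdlan and 0.43 (SE 0.22, edgeR adjusted p = 0.123) with it, and 0.69 and 0.17 without the libraries numbered 5. Cebpe, the C/EBP factor of secondary granule genes, did not pass in any comparison. It measured 12.9, 13.6 and 13.6 CPM across the unstimulated WT libraries and 17.5, 13.3 and 28.7 CPM in KO-labelled ones, where library 5 was the highest. Its log2 fold change between genotypes was 0.57 (SE 0.31, edgeR adjusted p = 0.161) and 0.33 (SE 0.32, edgeR adjusted p = 0.402), or 0.24 and -0.18 without the libraries numbered 5. Gfi1, a transcriptional repressor needed for granulocyte development, had a log2 fold change of 0.83 without curdlan and 0.73 with it (edgeR adjusted p = 0.0223 and 0.0409). With the libraries numbered 5 left out Gfi1 stood at 0.57 and 0.31, and the second no longer passed (edgeR adjusted p = 0.07). The noncoding gene A430072P03Rik overlaps Gfi1.

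Secondary granule genes were among the most abundant members. Ltf (lactoferrin, which binds iron), Ngp (neutrophilic granule protein, related to cathelicidins) and Camp (cathelicidin, a precursor of antimicrobial peptides) lie on chromosome 9 between 109847379 and 111042767. Ltf measured 1033, 1189 and 1340.4 CPM across the unstimulated WT libraries and 1611, 1703 and 2164 CPM in KO-labelled ones. With curdlan it measured 816, 886 and 907 CPM in WT and 1296, 977 and 1486 CPM in KO-labelled libraries. All KO-labelled libraries exceeded all WT libraries of the same state. On the log2 scale the genotypes differed by 0.62 (SE 0.16, edgeR adjusted p = 0.00601) and, with curdlan, 0.53 (SE 0.16, edgeR adjusted p = 0.0131). Leaving out the libraries numbered 5 gave 0.51 and 0.38.

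Ngp measured 857, 795 and 1097 CPM across unstimulated WT and 1192, 1459 and 2207 CPM in unstimulated KO-labelled libraries. Its levels with curdlan were 824, 794 and 988 CPM in WT and 1443, 1086 and 2141 CPM in KO-labelled libraries. KO-labelled 5 held the highest level in both states, and the genotypes did not overlap. The difference was 0.82 (SE 0.25, edgeR adjusted p = 0.0185) without and 0.84 (SE 0.25, edgeR adjusted p = 0.0142) with curdlan. Camp stood at 153, 152 and 186 CPM in WT and 186, 227 and 331 CPM in KO-labelled libraries without curdlan. With it, Camp stood at 141, 142 and 166 CPM in WT and 225, 287 and 367 CPM in KO-labelled libraries. The lowest unstimulated KO-labelled library barely exceeded the highest WT one, whereas the curdlan groups lay further apart. For Camp the log2 fold change was 0.60 (SE 0.20, edgeR adjusted p = 0.0295) and 0.97 (SE 0.20, edgeR adjusted p = 0.00179), in the same order. Leaving out the libraries numbered 5 gave 0.56 and 0.54 for Ngp and 0.37 and 0.77 for Camp, and the unstimulated Camp value then lay close to the threshold (edgeR adjusted p = 0.0496).

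Lcn2 encodes lipocalin 2, which binds bacterial siderophores. Without curdlan it measured 303, 362 and 401 CPM in WT and 706, 560.1 and 909.8 CPM in KO-labelled libraries. With curdlan the levels were 341, 387 and 488 CPM in WT and 629.9, 403 and 786 CPM in KO-labelled libraries. The groups overlapped only with curdlan, where KO-labelled 4 fell inside the WT range. The fitted log2 difference was 1.03 (SE 0.23, edgeR adjusted p = 0.00332) and, with curdlan, 0.58 (SE 0.23, edgeR adjusted p = 0.0517). It was 0.86 and 0.35 without the libraries numbered 5.

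Cd177, a surface protein that holds proteinase 3 on neutrophils, measured 165, 188 and 212 CPM in WT and 273, 274 and 378 CPM in KO-labelled libraries without curdlan. The curdlan libraries held 138, 151 and 162 CPM in WT and 216, 157 and 251 CPM in KO-labelled. Again KO-labelled 4 with curdlan lay inside the WT range. Differences were 0.71 (SE 0.17, edgeR adjusted p = 0.00441) and 0.46 (SE 0.17, edgeR adjusted p = 0.036). They were 0.57 and 0.30 without the libraries numbered 5, and the second was no longer past the threshold (edgeR adjusted p = 0.0804). Itgb2l, which encodes an integrin beta chain, measured 49.1, 58.4 and 64 CPM in WT and 91.6, 87.3 and 120.5 CPM in KO-labelled libraries without curdlan. In the curdlan libraries it stood at 48.4, 57.3 and 67.8 CPM in WT and 74.5, 50.2 and 81.4 CPM in KO-labelled libraries. The second pair of groups overlapped, and its difference of 0.25 (SE 0.18, edgeR adjusted p = 0.282) did not pass, against 0.80 (SE 0.19, edgeR adjusted p = 0.00361) without curdlan. For Itgb2l the fits without the libraries numbered 5 gave 0.68 and 0.11. Igsf5 overlaps Itgb2l on the other strand.

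Pglyrp1, a peptidoglycan recognition protein, measured 82.2, 76.2 and 89.3 CPM in WT and 141, 152 and 207 CPM in KO-labelled libraries without curdlan. With curdlan the values were 73.1, 70.9 and 82.6 CPM in WT and 137, 138 and 213 CPM in KO-labelled libraries. The genotypes lay well apart in both states, and among secondary granule genes Pglyrp1 had the lowest adjusted p in both. The log2 fold change was 1.01 (SE 0.18, edgeR adjusted p = 0.000527) and 1.11 (SE 0.18, edgeR adjusted p = 0.000255), and 0.86 and 0.86 without the libraries numbered 5. Olfm4, an olfactomedin of a subset of neutrophils, measured 47.2, 66.8 and 67 CPM in WT and 113, 128 and 104 CPM in KO-labelled libraries without curdlan. Its curdlan values were 46.7, 60.0 and 64.9 CPM in WT and 117, 71.7 and 92.5 CPM in KO-labelled libraries. Olfm4 was the member for which library 5 was not the highest of the KO-labelled libraries in either state. Between genotypes this was a log2 fold change of 0.93 (SE 0.18, edgeR adjusted p = 0.00135) and 0.71 (SE 0.18, edgeR adjusted p = 0.00631), and 1.03 and 0.72 without the libraries numbered 5. Fcnb, a lectin gene of low abundance, stood at 0.67 and 0.32 (edgeR adjusted p = 0.0364 and 0.289). Without the libraries numbered 5 Fcnb stood at 0.37 and 0.10, and the first no longer passed (edgeR adjusted p = 0.0817).

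Hp ran against the rest of its class. Hp encodes haptoglobin, a haemoglobin-binding protein that neutrophils store in secondary granules and that macrophages and liver cells also make. It measured 189, 174 and 174 CPM across the unstimulated WT libraries and 87.9, 73.9 and 142 CPM in KO-labelled ones. Curdlan libraries held 244, 239 and 283 CPM in WT and 79.3, 82.4 and 147 CPM in KO-labelled libraries. All 6 KO-labelled values lay below all 6 WT values, and library 5 was the KO-labelled library nearest to WT. On the log2 scale the genotypes differed by -0.82 (SE 0.25, edgeR adjusted p = 0.0166) without and -1.31 (SE 0.25, edgeR adjusted p = 0.00087) with curdlan. Without the libraries numbered 5 it was -1.11 and -1.66. Per length, the ratio of Hp to Lcn2 (CPM per kb) was 1.02, 0.783 and 0.709 in unstimulated WT and 0.203, 0.216 and 0.255 in unstimulated KO-labelled libraries, a pair chosen after the values were seen.

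Both metalloproteinase genes were higher in KO-labelled cultures. Mmp9, which encodes gelatinase B, measured 92.5, 109.7 and 112 CPM across the unstimulated WT libraries and 288, 202 and 421 CPM in KO-labelled ones. With curdlan it measured 80.7, 92.9 and 99 CPM in WT and 132, 97.4 and 264 CPM in KO-labelled libraries. The genotypes lay apart without curdlan, and with it KO-labelled 4 fell among the WT libraries. The fitted log2 difference was 1.54 (SE 0.32, edgeR adjusted p = 0.00193) without and 0.86 (SE 0.32, edgeR adjusted p = 0.0386) with curdlan. The second call was lost without the libraries numbered 5 (0.34, edgeR adjusted p = 0.109), while the first stood (1.26).

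Mmp8, the neutrophil collagenase whose upstream sequence is printed above, measured 309.9, 311 and 293 CPM across unstimulated WT and 622, 466 and 582 CPM in KO-labelled libraries. The curdlan values were 274, 252 and 229 CPM in WT and 368, 264 and 413 CPM in KO-labelled libraries. Without curdlan all KO-labelled libraries were higher than all WT ones, and library 5 was not the highest. The log2 fold change was 0.87 (SE 0.15, edgeR adjusted p = 0.000476) and, with curdlan, 0.47 (SE 0.15, edgeR adjusted p = 0.019). With the libraries numbered 5 left out Mmp8 stood at 0.87 and 0.33, and the second no longer passed (edgeR adjusted p = 0.0801).

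**Figure D3:**
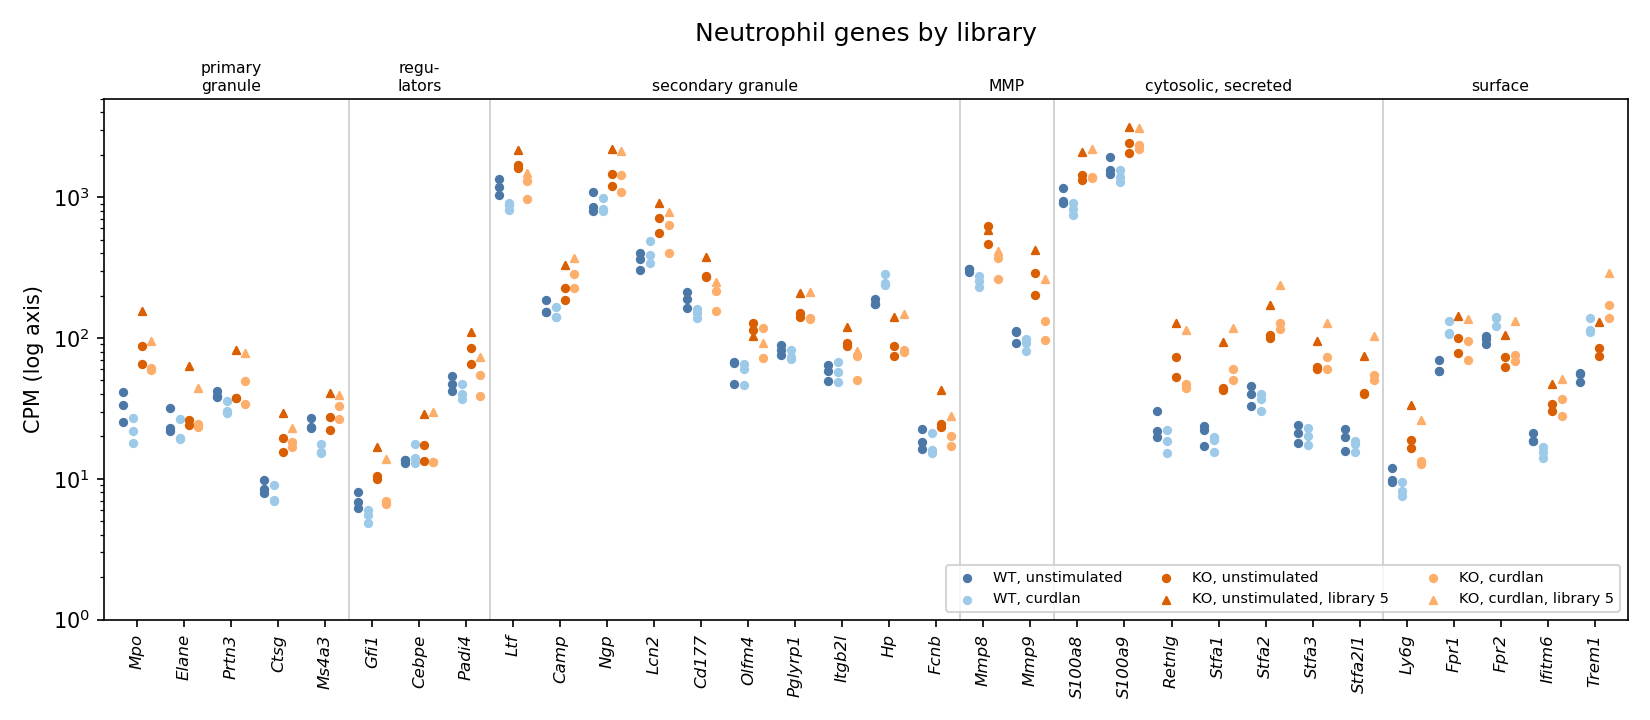
Level of each member in each of the 12 libraries, in CPM on a log axis, grouped by class; each point is a library and triangles are KO-labelled libraries numbered 5. Members span 4.85 CPM (Gfi1) to 3154 CPM (S100a9), and the triangles top their groups for most members.

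The late cytosolic and secreted products were all higher in KO-labelled cultures in both states. The widest differences lay in the stefin A genes and Retnlg, and smaller ones in S100a8 and S100a9, the most abundant members per length (means of 1844 and 3905 CPM per kb over 12 libraries). S100a8 and S100a9 encode the chains of calprotectin, which makes up much of the neutrophil cytosol, and lie together on chromosome 3. S100a9 measured 1551, 1467 and 1933 CPM across the unstimulated WT libraries and 2056, 2442 and 3154 CPM in KO-labelled ones. In the curdlan libraries it stood at 1391, 1293 and 1557 CPM in WT and 2338, 2188 and 3093 CPM in KO-labelled libraries. S100a8 measured 944, 903 and 1171 CPM in WT and 1333, 1432 and 2099 CPM in KO-labelled libraries without curdlan. Neither gene had overlapping genotypes, in either state. With curdlan S100a8 measured 829, 749.7 and 907 CPM in WT and 1375, 1399.8 and 2214 CPM in KO-labelled libraries. For S100a9 the log2 fold change was 0.63 (SE 0.17, edgeR adjusted p = 0.0101) and 0.85 (SE 0.17, edgeR adjusted p = 0.00141), and for S100a8 0.69 and 1.00 (edgeR adjusted p = 0.0156 and 0.00143). Leaving out the libraries numbered 5, S100a9 stood at 0.48 and 0.68, and S100a8 at 0.49 and 0.74.

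Stefin A genes encode inhibitors of cysteine proteases and form a cluster on chromosome 16, with the 4 members between 36156811 and 36455392. Some of their transcripts share sequence with other genes, so reads may be split. Of the 50-base words, 24.6% of those of Stfa2l1, 22.5% of Stfa1, 15.9% of Stfa2 and none of Stfa3 occur in another gene. Among the 4 members only Stfa2 and Stfa2l1 share words with each other (62). The shared words of Stfa1 occur in BC100530 (138) and BC117090 (64), which are not members. Stfa3, the unshared one, measured 21.2, 18 and 24.1 CPM across the unstimulated WT libraries and 61.7, 60.1 and 95.9 CPM in KO-labelled ones. Curdlan libraries held 20.0, 17.3 and 22.8 CPM in WT and 73, 60.1 and 128 CPM in KO-labelled libraries. Every KO-labelled library lay far above every WT library, in both states. Between genotypes this was a log2 fold change of 1.78 (SE 0.26, edgeR adjusted p = 0.000148) and 2.12 (SE 0.26, edgeR adjusted p = 4.11e-05), and 1.56 and 1.73 without the libraries numbered 5.

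Stfa2 measured 40.3, 32.8 and 45.3 CPM in WT and 101, 105 and 171 CPM in KO-labelled libraries without curdlan. With curdlan the levels were 37.1, 30.3 and 40.1 CPM in WT and 127, 116 and 236 CPM in KO-labelled libraries. Its KO-labelled libraries also lay far above WT, with library 5 highest. The difference was 1.67 (SE 0.27, edgeR adjusted p = 0.000311) and 2.16 (SE 0.27, edgeR adjusted p = 4.8e-05), and 1.42 and 1.76 without the libraries numbered 5. Stfa1 measured 22.2, 17.1 and 23.9 CPM in WT and 43.1, 44.4 and 94 CPM in KO-labelled libraries without curdlan, then 19.7, 15.6 and 18.8 CPM in WT and 50.7, 60.0 and 117 CPM in KO-labelled libraries with it. Stfa2l1 measured 19.7, 15.7 and 22.5 CPM in WT and 40.0, 40.4 and 74.4 CPM in KO-labelled libraries, then 17.7, 15.4 and 18.7 CPM in WT and 50.7, 54.6 and 103 CPM in KO-labelled libraries. Both repeated the pattern of Stfa2, with no overlap. Their log2 fold changes were 1.52 and 1.42 without curdlan (edgeR adjusted p = 0.00266 and 0.00152). With curdlan they were 2.07 and 2.01 (edgeR adjusted p = 0.00032 and 0.000131). Leaving out the libraries numbered 5 gave 1.09 and 1.62 for Stfa1 and 1.09 and 1.61 for Stfa2l1. With the 4 rows summed into 1, the log2 fold change was 1.62 (SE 0.28, edgeR adjusted p = 0.000501) without curdlan and 2.10 (SE 0.28, edgeR adjusted p = 7.4e-05) with it. Without the libraries numbered 5 the sums stood at 1.33 and 1.70. Summing covers the words that Stfa2 and Stfa2l1 share, and not those that Stfa1 shares with BC100530 and BC117090.

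Retnlg, a resistin-like secreted protein of neutrophils, was 3.5-fold higher in unstimulated KO-labelled cultures. It measured 21.8, 19.8 and 30.5 CPM in WT and 72.8, 52.6 and 127 CPM in KO-labelled libraries. With curdlan it measured 18.7, 15.3 and 22.2 CPM in WT and 46.8, 44.5 and 114 CPM in KO-labelled libraries. Library 5 was the highest in each state, and all KO-labelled libraries lay above WT. On the log2 scale the genotypes differed by 1.81 (SE 0.38, edgeR adjusted p = 0.00195) and 1.86 (SE 0.38, edgeR adjusted p = 0.00148), and without the libraries numbered 5 1.42 and 1.28. Within a library, the ratio of Stfa2 to S100a9 (CPM per kb) was 0.0288, 0.0247 and 0.0259 in unstimulated WT and 0.0542, 0.0478 and 0.0602 in unstimulated KO-labelled libraries. With curdlan it was 0.0296, 0.026 and 0.0285 in WT and 0.0604, 0.059 and 0.0847 in KO-labelled libraries, so the late products were not in a fixed proportion. The pair was chosen after the values were seen.

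Of the surface genes, Trem1, Fpr1, Ifitm6 and Ly6g were higher in unstimulated KO-labelled cultures. Ifitm6, an interferon-induced transmembrane family gene, measured 18.6, 18.5 and 21.2 CPM in WT and 30.3, 34 and 47.4 CPM in KO-labelled libraries without curdlan. In the curdlan libraries it stood at 15.5, 14 and 16.9 CPM in WT and 36.9, 28 and 51.1 CPM in KO-labelled libraries. No WT library reached the lowest KO-labelled one in either state. The fitted log2 difference was 0.94 (SE 0.20, edgeR adjusted p = 0.00214) and 1.32 (SE 0.20, edgeR adjusted p = 0.000192), and 0.76 and 1.07 without the libraries numbered 5. Ly6g, the surface antigen used to identify mouse neutrophils, was of low abundance and stood at 1.14 and 1.05 (edgeR adjusted p = 0.00602 and 0.00957). It was 0.80 and 0.64 with the libraries numbered 5 left out.

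Trem1, a receptor that amplifies inflammatory signals, measured 49, 56.4 and 55.5 CPM across the unstimulated WT libraries and 85.2, 74.1 and 129.6 CPM in KO-labelled ones. Curdlan libraries held 110.0, 114 and 138 CPM in WT and 172, 139 and 288 CPM in KO-labelled libraries. Curdlan libraries exceeded the unstimulated ones within each genotype. The difference between genotypes was 0.85 (SE 0.25, edgeR adjusted p = 0.0144) without and 0.73 (SE 0.25, edgeR adjusted p = 0.0256) with curdlan, and 0.60 and 0.37 without the libraries numbered 5. Fpr1, the high-affinity receptor for bacterial formyl peptides, measured 58.2, 58.1 and 70.0 CPM in WT and 101, 78 and 143 CPM in KO-labelled libraries without curdlan. Its levels with curdlan were 109, 107 and 131 CPM in WT and 95, 69.4 and 136 CPM in KO-labelled libraries. The genotypes lay apart without curdlan and overlapped with it. The log2 fold change was 0.79 (SE 0.24, edgeR adjusted p = 0.0161) without curdlan, and 0.56 there without the libraries numbered 5. With it the value was -0.21 (SE 0.23, edgeR adjusted p = 0.481), and without the libraries numbered 5 it was -0.49 and passed (edgeR adjusted p = 0.0209).

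Fpr2, a second formyl peptide receptor, measured 103, 89.9 and 98.7 CPM in WT and 72.9, 62.4 and 106 CPM in KO-labelled libraries without curdlan. With curdlan it measured 140.2, 122 and 138 CPM in WT and 68.9, 75.5 and 132 CPM in KO-labelled libraries. In both states KO-labelled library 5 lay within or just above the WT range and the other KO-labelled libraries lay below it. Neither difference passed with all libraries (-0.27 and -0.53, edgeR adjusted p = 0.361 and 0.0678), and both passed without the libraries numbered 5 (-0.49 and -0.88, edgeR adjusted p = 0.00212 and 3.57e-05). Fpr2 is uncertain, since 31.5% of its 50-base words occur in another gene and Fpr3 overlaps it.

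Some of these calls rested on single libraries. Without curdlan, 19 of the 27 calls between genotypes stood whichever of the 12 libraries was left out, among them Mpo, Ctsg, Ltf, Lcn2, Mmp8, Mmp9, Retnlg and the 4 stefins. Camp, Fcnb, Fpr1, Gfi1, Ngp and S100a8 each lost their call without unstimulated WT 1, WT 2 or KO-labelled 5, and Trem1 without WT 1 or KO-labelled 5. Hp lost its call without unstimulated KO-labelled 1 or 2. With curdlan 16 of 23 calls stood throughout. Ltf lost its call without curdlan KO-labelled 5, Ngp without that library or WT 2, and Trem1 without either of these or WT 1. The calls of Mmp8 and Cd177 were lost without any of WT 2, WT 4, KO-labelled 2 or KO-labelled 5, and that of Cd177 also without WT 1. Gfi1 and Mmp9 lost theirs without any curdlan WT library or KO-labelled 5, Gfi1 also without unstimulated WT 1, and Mmp9 also without unstimulated WT 4 or KO-labelled 1.

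In the fit with no replicate block, few members passed the threshold for a response to curdlan at 3 hours. With the numbers fitted as pairs, as given below, 4 members rose in WT by either numbering. By library-name numbers 16 fell, and by title numbers 14. The shares of all tested genes were 18.6% and 17.3% for rises and 19.8% and 17.2% for falls. The 2 curdlan comparisons share their libraries with the comparisons between genotypes. With no block, Trem1 and Fpr1 rose in WT cultures, 2 of 32 members against 11.4% of all tested genes, and none fell, against 8.40%. The rise was 1.17 (SE 0.25, edgeR adjusted p = 0.00578) on the log2 scale for Trem1 and 0.90 (SE 0.24, edgeR adjusted p = 0.0183) for Fpr1. All WT curdlan libraries lay above all unstimulated ones for both genes. The Fpr1 call was lost without unstimulated WT 1 or 2 or curdlan WT 4. The median over the members was -0.20, against -0.03 over all genes tested. All 12 libraries share 1 estimate of the spread, so KO-labelled libraries also bear on the WT calls. Without both KO-labelled libraries numbered 5, 6 members passed in WT, against 23% of all genes then tested. Hp (0.54, edgeR adjusted p = 0.00119) and Fpr2 (0.48, edgeR adjusted p = 0.00228) then rose too. Ms4a3 (-0.57, edgeR adjusted p = 0.0047) and Ltf (-0.42, edgeR adjusted p = 0.0214) fell.

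In KO-labelled cultures, also with no block, Trem1 alone rose, 1 of 32 against 14.0% of all tested genes, by 1.05 (SE 0.25, edgeR adjusted p = 0.0078). Padi4, Ltf, Cd177, Itgb2l and Mmp8 fell, 5 of 32 against 14.6%. Mmp8 stood at -0.68 (SE 0.15, edgeR adjusted p = 0.00526), and its unstimulated and curdlan libraries did not overlap. Ltf stood at -0.54 (SE 0.16, edgeR adjusted p = 0.021), Cd177 at -0.57 (SE 0.17, edgeR adjusted p = 0.0249), Padi4 at -0.64 (SE 0.22, edgeR adjusted p = 0.0458) and Itgb2l at -0.54 (SE 0.18, edgeR adjusted p = 0.0458). The Ltf and Cd177 calls were lost without unstimulated KO-labelled 5 or curdlan KO-labelled 4. The Itgb2l call was lost when any of 6 single libraries was left out, and the Padi4 call for any of 10. Those of Trem1 and Mmp8 stood throughout. Without both libraries numbered 5, 8 members passed, against 21.1% of all genes then tested. Itgb2l lost its call, and 3 members were now called as falling. They were Mmp9 (-1.10, edgeR adjusted p = 0.00167), Gfi1 (-0.59, edgeR adjusted p = 0.0121) and Ly6g (-0.44, edgeR adjusted p = 0.0404).

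With no block, the response itself did not differ between genotypes past the threshold for any member in edgeR's quasi-likelihood test, 0 of 32 against 5.21% of all tested genes. At an unadjusted p under 0.05 there were 2, against 25.6% of all tested genes, and DESeq2 called 1, Fpr1, against 11.9%. The Fpr1 response was 0.90 in WT and -0.10 in KO-labelled cultures, a difference of -1.0 (SE 0.33, edgeR adjusted p = 0.0905), with an edgeR adjusted p of 2.33e-05 to 0.193 over all alternatives. Without both libraries numbered 5, a leave-out chosen after the values were seen, 3 of 32 members passed, against 4.16% of all genes then tested. They were Fpr1 (-1.05, edgeR adjusted p = 0.0244), Mmp9 (-0.92, edgeR adjusted p = 0.049) and Ms4a3 (0.82, edgeR adjusted p = 0.0328). The corresponding difference for Trem1 was -0.12 (SE 0.35, edgeR adjusted p = 0.873).

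Libraries with the same number shared deviations from their group means within a genotype, so the numbers were also fitted as pairs, and the curdlan results then changed. With the number of the library name as a block, 4 members rose in WT (18.6% of all tested genes did) and 16 fell (19.8%). The rises were Trem1 (1.16), Fpr1 (0.90), Hp (0.51) and Fpr2 (0.46). The falls held 4 of 5 primary granule genes, with Ms4a3 at -0.59, Mpo at -0.57, Prtn3 at -0.32 and Elane at -0.23. They also held Ltf (-0.44) and Cd177 (-0.32), Mmp8 and Mmp9, S100a8 and S100a9, Retnlg, Stfa1, Ly6g, Ifitm6, Gfi1 and Padi4. The largest edgeR adjusted p among these 20 was 0.0258, for Padi4.

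In KO-labelled cultures the block gave 6 rises (14.4% of all tested genes) and 12 falls (15.2%). The 4 stefins rose, Stfa2l1 by 0.40, Stfa2 by 0.37, Stfa3 by 0.35 and Stfa1 by 0.25, as did Trem1 (1.18) and Fpr2 (0.24). Mmp9 (-0.64) and Mpo (-0.63) led the falls, with Cd177, Ltf, Fcnb, Gfi1, Padi4, Mmp8, Itgb2l, Elane, Ly6g and Ctsg. Only numbers 2 and 5 of the library names occur in both KO-labelled states, so this pairing rests on 2 pairs. The sample titles number the KO-labelled libraries otherwise and give 3 pairs, with correlations of deviations of 0.22, 0.25 and 0.56. The last of these is the pair numbered 5, which belongs to both numberings. The labels do not say which numbering marks a shared source, and the correlations cannot decide it.

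The blocked difference of the responses was higher in KO-labelled cultures for 6 members (5.58% of all tested genes) and lower for 4 (8.49%). Stfa2l1 (0.55), Ms4a3 (0.55), Stfa2 (0.51), Stfa1 (0.47), Ifitm6 (0.44) and Stfa3 (0.42) were the higher ones. Fpr1 (-0.79), Mmp9 (-0.44), Hp (-0.43) and Itgb2l (-0.41) were the lower ones. Their edgeR adjusted p ran from 0.000498 (Fpr1) to 0.0217 (Itgb2l). For the summed stefins the blocked response in KO-labelled cultures was 0.35 and the blocked difference 0.49 (edgeR adjusted p = 0.00198 and 0.00353), against 0.34 and 0.48 with no block (edgeR adjusted p = 0.389 and 0.467).

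With the title numbers as the block the calls were partly others. In WT, where both numberings give the same pairs, 4 members rose (17.3% of all tested genes) and 14 fell (17.2%), all of them called under the library-name block too. In KO-labelled cultures 6 rose (20.1%) and 12 fell (21.3%). The 4 stefins and Trem1 rose and 10 members fell under both blocks, while Fpr2 (rise), Elane and Ctsg (falls) passed only by library name, and Camp (rise), Lcn2 and Retnlg (falls) only by title. For the difference of the responses 7 were higher in KO-labelled cultures (10.6%) and 8 lower (13.0%). Both blocks called Ms4a3, Stfa1, Stfa2 and Stfa2l1 higher and Itgb2l, Hp, Mmp9 and Fpr1 lower.

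**Figure D4:**
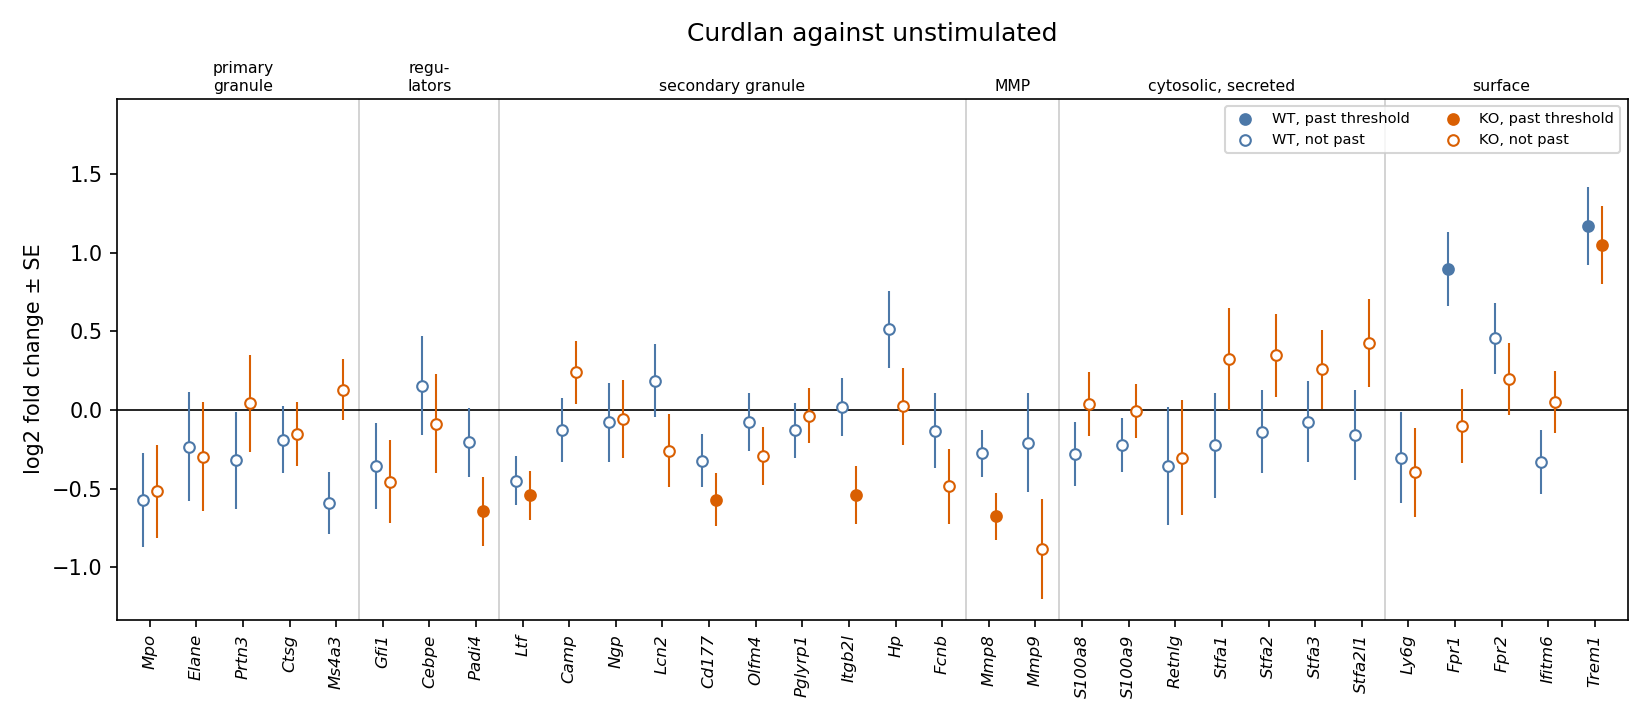
Log2 fold change of each member between curdlan and unstimulated libraries in WT (blue) and KO-labelled (orange) cultures, with SE bars (3 libraries a group, no block); filled points passed an adjusted p under 0.05. Trem1 lies above 1 in both genotypes and Fpr1 at 0.90 in WT and near 0 in KO-labelled cultures. Mmp9 is the lowest point, in KO-labelled cultures, and is open.

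Other genes of neutrophil development partly followed the members between genotypes. Of 12 other azurophil granule and serglycin genes 11 were tested, and without curdlan 8 were higher in KO-labelled cultures and 1 lower, beside the 21.1% and 23.3% of all tested genes given above. Among the higher ones Cst7 (cystatin F) stood at 0.83 and Srgn (serglycin, the granule proteoglycan) at 0.82. Of 12 granulopoiesis regulators 7 were higher and 2 lower. Csf3r, the receptor for G-CSF, stood at 1.26, Cebpd at 1.41, Id1 at 1.76 and Gfi1b at -1.28. Of 22 other late neutrophil genes 10 were higher and 1 lower, with the histamine enzyme gene Hdc, which the mast cell list also holds, at 2.81, the chemokine receptor Cxcr2 at 1.35, the protease gene Asprv1 at 1.55 and the stefin-like BC100530 at 1.59. With curdlan, beside 24.7% of all tested genes higher and 26.8% lower, 6 genes of the first list were higher and 1 lower, 6 of the second were higher and 2 lower, and 9 of the last were higher and 2 lower. Over the late list, Itgam, Cybb, Chil3 and Fgr did not pass without curdlan, at -0.13, -0.08, 0.05 and 0.04. Without the libraries numbered 5 the counts in unstimulated cultures were 8 higher and 1 lower in the first list, 6 and 2 in the second and 14 and 2 in the last. With curdlan they were 5 and 1, 7 and 1, and 10 and 4.

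Markers of other marrow cells moved between the genotypes as well. Of 12 mast cell and basophil markers 9 were tested and all 9 were higher in KO-labelled cultures in both states. Their summed level was 58 to 67.7 CPM across unstimulated WT and 282 to 457 CPM in unstimulated KO-labelled libraries. With curdlan it was 69.1 to 94.6 CPM in WT and 436 to 627 CPM in KO-labelled libraries. Hdc, which the late neutrophil list also holds, was the most abundant gene of this sum. Its mean over 12 libraries was 111 CPM, and that of Prss34, the next, was 58.7 CPM. KO-labelled library 5 held the highest sum in each state, and Mcpt4, a connective-tissue mast cell protease, had no count in any library. The basophil proteases Mcpt8 and Prss34 stood at 2.52 and 2.18 without curdlan.

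Of 15 monocyte and macrophage markers 12 were higher in unstimulated KO-labelled cultures and 1 lower, with sums of 2600.3 to 2646 CPM in WT and 8219 to 9570.0 CPM in KO-labelled libraries. With curdlan 9 were higher and 1 lower, and the sums were 2815 to 3064 and 8543 to 9063 CPM. Here library 5 did not hold the highest KO-labelled sum in either state. The highest log2 fold change of a monocyte and macrophage marker was 6.89 without curdlan and 6.73 with it, and 1 of the 15 lay below 0 in each state. Of 15 conventional dendritic cell markers 7 were higher and 5 lower in both states, with sums of 3562 to 3706 CPM in WT and 5576 to 7027 CPM in KO-labelled libraries without curdlan. These sums rest largely on H2-Eb1, H2-Ab1 and Itgax (means of 1495, 1370 and 1139 CPM over 12 libraries). Single dendritic cell markers ranged from -5.70 to 4.10 on the log2 scale without curdlan and from -4.49 to 5.01 with it. The 32 members ranged from -0.82 to 1.81 and from -1.31 to 2.16. Of 9 eosinophil markers 1 was higher and 4 lower in both states, and their sums without curdlan were 146 to 187 CPM in WT and 41.7 to 129.5 CPM in KO-labelled libraries. Of 8 stem and progenitor markers 4 were higher and 1 lower in both states, with sums of 32.6 to 34.8 and 43.9 to 81.1 CPM without curdlan. For erythroid and megakaryocyte markers 5 of 10 were tested and 2 were higher in both states, and the platelet gene Pf4 was the most abundant of them. T and NK cell markers summed to 5.42 to 6.79 CPM across unstimulated WT and 4.45 to 7.05 CPM in unstimulated KO-labelled libraries, and Gzma had no count. With both libraries numbered 5 left out, 10 mast cell and basophil markers were tested and all 10 were higher in both states, and 4 stem and progenitor markers were higher and 2 lower without curdlan, 5 and 2 with it. T and NK cell markers then held 1 higher and 1 lower in both states, and the counts of the monocyte, dendritic cell, eosinophil and erythroid lists were as with all libraries. The part of these cell types in the members' differences was not tested.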

How the data were processed

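Total RNA was purified by TRIzol and silica columns, and libraries were made with a TruSeq RNA kit, a kind that does not mark strand, per the labels' protocols. The authors deposited whole-number counts of reads per gene for 12 libraries, not normalized. FastQC 0.11.1, TopHat2 2.4.2a, SAMtools 1.2, featureCounts 1.4.6 and DESeq2 1.8.2 are named in the submitters' processing notes; their genome build, annotation and rule for multiply matching reads: not given in the sources used here. Deposited tables of KO against WT with curdlan and of an interaction hold log2 fold changes, per the file headers. Adjusted p-values stand beside them in the deposited tables. Their 24 normalized or raw columns per library were not used.

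Genes passed edgeR's filterByExpr by group, were scaled by TMM, and were tested with the two-sided quasi-likelihood F-test of edgeR 4.0.16 (R 4.3.3) in 1 fit of 12 libraries with 4 group means. The 5 comparisons were adjusted by Benjamini-Hochberg over all 18981 tested genes, with a threshold of 0.05. The procedure was tested on simulated data with known fold changes. CPM per kb uses GENCODE M21 exon lengths. Promoters are those of RefSeq (GRCm38.p6). Members given in full passed in any comparison, with a mean of at least 1 CPM, up to 24 by mean CPM. Elane, Prtn3, Cebpe and Fpr2 passed in none of the 5 comparisons and are given with library values as well. Others are given by their changes or counts. The members, classes and lists were chosen with earlier results of these data known. Some genes of the other lists are not reported here by name. Alternatives were other scalings and filters, DESeq2 1.42.0, fits of 2 groups alone, replicate blocks and leaving out libraries.

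Pairing by library-name number was checked by the correlation of deviations from group means. It was 0.13 to 0.56 for the 5 same-number pairs within a genotype, -0.47 to 0.25 for the 13 pairs of other numbers and -0.15 to 0.19 between genotypes. Sample titles number libraries 1 to 3 in each group. Their pairs are those of the library names in WT, while in KO-labelled cultures they give 3 pairs, with correlations of 0.22 to 0.56. The pair at 0.56, of the libraries numbered 5, belongs to both numberings, and the 0.25 among the pairs of other numbers is a title pair. KO-labelled 2 in both states, a pair by library name alone, stood at 0.29. Deviations within a group balance out, so these correlations are not independent. The check cannot decide between the numberings in KO-labelled cultures, and the results of both are given. In the blocked curdlan comparisons and their difference the numbers were nested in genotype. The blocked genotype comparisons came from a separate fit with numbers shared across genotypes, which the correlations between genotypes give no ground for. The authors' table numbers the WT curdlan columns in another order than the count table.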

Additional observations from a re-analysis of the deposited data

Results flagged for a closer look

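The response to curdlan differed between genotypes, by edgeR's test of the difference itself, for 4 of the 12 granulopoiesis regulators, beside 5.21% of all tested genes. Klf4, a monocyte-lineage transcription factor, fell in WT (-0.78) and stood at 0.25 in KO-labelled cultures, where it did not pass, a difference of 1.02 (edgeR adjusted p = 0.0179). Csf2ra, a chain of the GM-CSF receptor, stood at -0.03 in WT and 0.55 in KO-labelled cultures, a difference of 0.58 (edgeR adjusted p = 0.0353). Id2, an inhibitor of helix-loop-helix factors, stood at 0.67 and -0.02, a difference of -0.69 (edgeR adjusted p = 0.00842). Csf3r, the G-CSF receptor gene, fell in both, by 0.43 and 0.93 on the log2 scale, a difference of -0.50 (edgeR adjusted p = 0.0364). No cause of these differences was tested.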

How the results depend on the processing

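Over all alternatives no called value changed sign. Shares of all tested genes called stand in parentheses. For curdlan in WT, 2 members passed (19.8%), against 4 with upper-quartile scaling (22.3%), no filter (12.2%) or DESeq2 (21.9%), 5 by library size alone (32.3%), 10 in a fit of the 2 groups alone (28.3%), 20 with the replicate block by library name (38.3%), 18 with the block by title numbers (34.5%) and 6 without both KO-labelled libraries numbered 5 (23.0%; chosen after seeing the data). For curdlan in KO-labelled cultures, 6 passed (28.6%), against 2 in the 2 groups alone (17.6%) and 8 without the libraries numbered 5 (21.1%). With either replicate block 18 passed (29.6% by name, 41.4% by title). For the difference of the responses, 0 passed (5.21%), against 1 by DESeq2 (11.9%), 10 and 15 with the blocks (14.1% and 23.6%) and 3 without the libraries numbered 5 (4.16%). Leaving out 1 library gave 1 to 5 (11.3% to 21.9%), 2 to 9 (18.1% to 31.5%) and 0 to 2 (1.9% to 14.7%) members in these 3 comparisons. Between genotypes it gave 20 to 28 (36.9% to 46%) without curdlan and 17 to 26 (41.5% to 51.1%) with it. The summed stefin response in KO-labelled cultures was 0.35 and 0.31 with the blocks by library name and by title, and the difference of the responses 0.49 and 0.45; all 4 passed, unlike 0.34 and 0.48 with no block. Fits without 1 library gave -0.08 to 0.66 and 0.04 to 0.80 for these values. The block by library name, with numbers shared across genotypes, gave 28 (45.8%) and 24 (52.5%) members between genotypes, without and with curdlan. Scaling by library size alone moved the median of all genes to -0.19 and -0.24 between genotypes. It left 22 members higher and 1 lower without curdlan (50.9%), and 15 and 2 with it (54.7%). In response to curdlan 2 members then rose and 3 fell in WT (32.3%), and 1 rose and 8 fell in KO-labelled cultures (39%). Among all 18981 tested genes 1534 then rose and 4589 fell in WT, and 1326 rose and 6073 fell in KO-labelled cultures. Of all genes called between genotypes 26.4% and 23.7% were then higher, against 47.5% and 48.0%. The causes of these shifts were not tested. With 3 libraries a group, the spread between libraries and not depth set the precision.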

Other observations

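The authors' deposited table named an interaction gave log2 fold changes for the members that lay close to the difference between genotypes without curdlan. Its median absolute distance from the values fitted here was 0.0101 (at most 0.0111, for Mmp8) for that comparison, and 0.971 for the difference of the curdlan responses. For Mpo the authors' deposited table gave 1.64, beside 1.63 fitted here between genotypes without curdlan and 0.05 for the difference of the responses. The authors' deposited table of KO against WT with curdlan lay at a median distance of 0.0417 (at most 0.355, for Retnlg) from the same comparison fitted here. Some calls differed. Prtn3, Lcn2 and Fpr2 passed there (DESeq2 adjusted p = 0.0087, 0.0297 and 0.0408) and not here. Mmp9 passed here and not there (DESeq2 adjusted p = 0.127).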
